A study of Mus musculus with 198 samples.

Results

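The BXD strains are recombinant inbred lines bred from the cross of C57BL/6J (B6) with DBA/2J (DBA), so that each line is fixed for the B6 or the DBA allele at nearly every locus. A probe for Stard7 on chromosome 2, ILMN_2676066, was at a high level in the B6 parent and at a low level in the DBA parent, and the high and low strains were chosen by the measured level of this probe. A strain was placed in the high, B6-like group when its hippocampus array lay above the midpoint of the parents on the log2 scale, which is an intensity of 616, and in the low, DBA-like group when it lay below. This gave 12 high and 18 low strains, among 198 arrays of the whole series. All other probes were then compared between the groups in hippocampus and in striatum, with the genes near Stard7 on chromosome 2 and the unlinked genes reported apart.

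The study used male mice of the Hybrid Mouse Diversity Panel (HMDP) for its tests of conditioned fear. The paper does not state outright that the animals of the arrays were the ones tested. Total RNA of dissected hippocampus and striatum was hybridized to Illumina MouseRef-8 v2.0 arrays with 25697 probes. The labels name no transgene and no drug for any strain of either group. Each strain had 1 array per tissue, and the sources used here do not say whether 1 mouse or a pool was hybridized. The strain is therefore the replicate, and p-values measure the spread between strains. BXD24a and BXD24b share a strain number as substrains of 1 line and were counted as 2 of the 18 low strains, so they are not fully independent, and changes of calls without either are given below where a call was lost.

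Stard7 is a lipid transfer protein with a START domain, the fold that shields a single lipid from water. It carries phosphatidylcholine to mitochondria, which cannot make this phospholipid themselves, and the rhomboid protease PARL cuts it so that it is shared between the mitochondrion and the cytosol. In a recombinant inbred line, neighbouring genes are inherited together. Any gene close to Stard7 that differs between the parents will therefore separate the same groups of strains, whether or not it has any relation to Stard7, and the resemblance fades with distance as crossovers accumulate.

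The promoter of Stard7 and those of Ciao1 and Ncaph, a pair of close neighbours that differed between the groups, are shown to give the start of each gene as it is in the reference genome. They are RefSeq sequences of build GRCm38.p6 (C57BL/6J), from 250 bases before to 50 bases after the start, and thus carry the B6 allele; the DBA sequence was not used here. Capitals mark CCAAT, or ATTGG on the other strand.
Stard7, chr2:127269979-127270278, plus strand: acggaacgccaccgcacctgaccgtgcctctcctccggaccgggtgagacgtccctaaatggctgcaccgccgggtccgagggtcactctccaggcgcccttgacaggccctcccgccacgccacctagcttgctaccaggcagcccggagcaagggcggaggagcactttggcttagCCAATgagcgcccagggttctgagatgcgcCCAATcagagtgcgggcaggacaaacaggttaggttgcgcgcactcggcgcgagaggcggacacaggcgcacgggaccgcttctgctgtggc
Ciao1, chr2:127247767-127248066, minus strand: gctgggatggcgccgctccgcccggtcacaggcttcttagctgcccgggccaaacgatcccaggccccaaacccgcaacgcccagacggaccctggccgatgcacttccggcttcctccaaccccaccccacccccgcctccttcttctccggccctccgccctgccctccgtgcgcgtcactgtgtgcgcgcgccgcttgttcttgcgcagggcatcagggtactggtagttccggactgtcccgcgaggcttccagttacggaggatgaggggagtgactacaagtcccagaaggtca
Ncaph, chr2:127133905-127134204, minus strand: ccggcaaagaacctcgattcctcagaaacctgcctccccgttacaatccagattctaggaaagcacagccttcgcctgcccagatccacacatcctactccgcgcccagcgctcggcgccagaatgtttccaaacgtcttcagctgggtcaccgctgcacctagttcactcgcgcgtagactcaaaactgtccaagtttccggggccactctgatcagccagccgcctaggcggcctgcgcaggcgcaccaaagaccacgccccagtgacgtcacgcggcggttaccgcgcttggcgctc
The Stard7 promoter held 2 such matches, at positions 179 and 209 from its first base, and the other 2 promoters held 0. Among all 32851 promoters of the same length 37.41% held at least 1, so the match is a description and does not set Stard7 apart.

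The BXD arrays differed little in the share of detected probes. Between 41.3% and 49.5% of probes were detected (p under 0.01) on a hippocampus array, and between 41.4% and 46.4% on a striatum array. The median rank correlation of an array with the others of its tissue lay between 0.933 and 0.948 in hippocampus, and in striatum 1 array was at 0.934 and the next at 0.949. An array has no read depth, so precision rests on how many strains there are and how far a probe stands above background. Marker genes fitted the tissue labels: the mean log2 level of the tested medium spiny neuron probes lay between 8.54 and 9.37 in hippocampus and between 11.27 and 12.04 in striatum, and that of the tested hippocampal neuron probes between 9.79 and 10.34 in hippocampus and between 8.47 and 9.03 in striatum.

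The probe that set the groups was bimodal. In hippocampus it ranged from 1401 to 1860 with a median of 1605 in the high strains, and from 247 to 483 with a median of 332 in the low strains. The values next to the midpoint were those of BXD5 at 1401 on the high side and of BXD12 at 483 on the low side, with no strain in between. The parent arrays read 1674 in B6 and 226 in DBA. These values chose the groups and are given as a description.

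The same probe in striatum was not used to choose the groups. It ranged from 1133 to 1562 with a median of 1388 in the high strains, and from 204 to 894 with a median of 264 in the low strains. The groups did not overlap, and 29 of the 30 strains lay on the same side of the parental midpoint as in hippocampus. The difference was 2.29 on the log2 scale (permutation test of the difference of means, two-sided, 100000 resamples, p = 2e-05, the smallest they can give). The probe and the strains are those that set the groups, so this p-value is not independent support for the split. The one strain that crossed over was BXD42, which read 364 in hippocampus and 894 in striatum. Without BXD42 the low strains ended at 311 and the difference was 2.38.

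**Figure D1:**
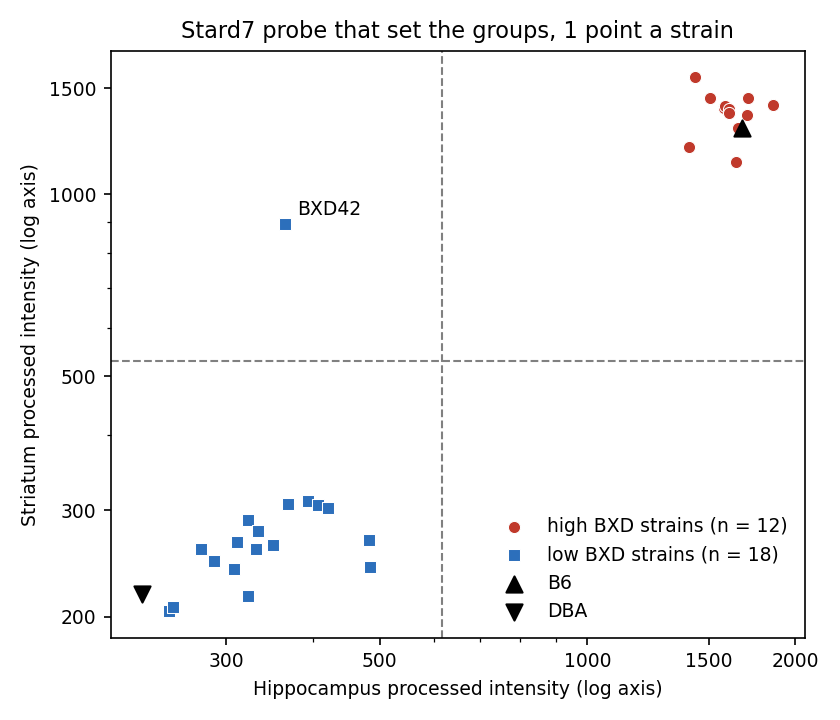
Processed intensity of the Stard7 probe ILMN_2676066 in hippocampus (horizontal, log axis) against striatum (vertical, log axis), 1 point per BXD strain, with triangles for the parents and dashed lines at the parental midpoints of 616 and 529. The 12 high strains lie with B6 and 17 of the 18 low strains with DBA, while BXD42 is low in hippocampus and at 894 in striatum.

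BXD42 stood apart at other loci as well. Besides the Stard7 probe, 137 probes differed by at least 1 log2 unit between B6 and DBA in the same direction in both tissues, and these were used to ask whether the 2 arrays of a strain lay on the same side of the parental midpoint. The arrays of BXD42 disagreed at 39 of the 137 probes, against 2 to 14 (median 5) for the other strains. Its striatum array lay at 0.3 to 0.7 of the way from DBA to B6 at 51 of these probes, against 6 to 21 in the other strains. The hippocampus array of BXD24a was intermediate at 40 probes, against 7 to 26 in the other strains. What sets these arrays apart was not tested, and results are also given without each of the 2 strains.

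**Figure D2:**
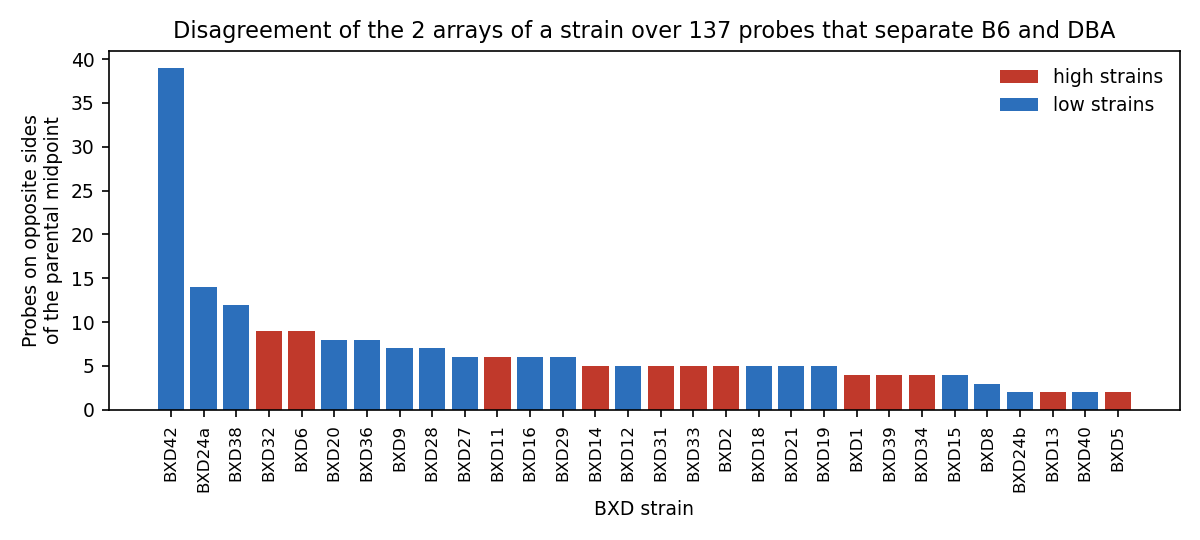
Number of probes, out of 137 that separate B6 from DBA by at least 1 log2 unit, at which the hippocampus and striatum arrays of a BXD strain fell on opposite sides of the parental midpoint (vertical) for each strain (horizontal). BXD42 had 39, the next strain, BXD24a, had 14, and the remaining strains had 2 to 12.

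The other probes for Stard7 did not separate the groups. ILMN_2789125, a bright probe, ranged from 1866 to 2643 with a median of 2400 in the high strains and from 1958 to 2895 with a median of 2356 in the low strains in hippocampus, and the groups overlapped almost completely. Its log2 difference was -0.06 ± 0.07 (SE; limma, adjusted p = 0.986) in hippocampus and 0.13 ± 0.05 (limma, adjusted p = 1) in striatum. ILMN_2611159 was not tested because it was detected in only 1 of 12 high and 1 of 18 low strains in hippocampus, at intensities of 139 to 195 in the high strains and 137 to 199 in the low strains. The split is thus a split by a single probe of Stard7. Probe sequences were not used here. Whether the 3 probes read the same transcripts was therefore not tested, nor whether ILMN_2676066 covers a DNA difference between B6 and DBA, so its intensity is given as a probe level and may not follow the amount of Stard7 transcript.

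The other strain sets show where this level occurs. In the BXH set, bred from B6 and C3H, 6 of 11 strains lay above the midpoint in hippocampus (1458 to 1823) and 5 lay below (275 to 387), and the C3H parent itself read 309. In the AXB/BXA set, bred from AJ and B6, 27 of 28 strains lay above in hippocampus and 28 of 28 in striatum, as did the AJ parent at 1426 in hippocampus. The exception in hippocampus, AXB19b, read 237 there and 1314 in striatum, so its arrays did not lie on the same side. Of 26 other inbred strains, CAST, CBA, I, NON and PL lay below the midpoint in both tissues, and the remaining 21, of which B6Cc3 had 2 arrays, lay above it in hippocampus.

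How far the block of shared inheritance extends around Stard7 can be read from probes that tell the parents apart. On chromosome 2 there were 9 of these 137 probes. Distance is counted here in protein-coding genes along the chromosome in the RefSeq annotation, in which Stard7 is gene 1170 of 1782. Tmem87a (a Golgi membrane protein, 90 genes before Stard7), Rmdn3 (a tether between the endoplasmic reticulum and mitochondria, 123 before, probe ILMN_3150536) and Ccndbp1 (a binding partner of cyclin D1, 78 before) each matched the Stard7 group in 27 of 30 strains in hippocampus. The same 3 strains, BXD9, BXD11 and BXD32, were the exceptions at all 3 genes. On the other side, Tasp1 (a threonine protease, 111 genes after) and Ndufaf5 (an assembly factor of complex I, 113 after) matched in 23 strains, and Rbbp9 (a serine hydrolase, 132 after) in 21.

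Toward the start of the chromosome the match was lower, with 19 strains for Fam171b, 16 for Rbm45 and 12 for Csrnp3, at 579, 608 and 689 genes from Stard7. Over the 118 such probes on other chromosomes, the median was 14 of 30 strains and the range 8 to 22. In striatum the counts on chromosome 2 differed from these by at most 1 strain, and where Rmdn3, Ccndbp1, Tasp1 and Ndufaf5 lost a strain it was BXD42.

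**Figure D3:**
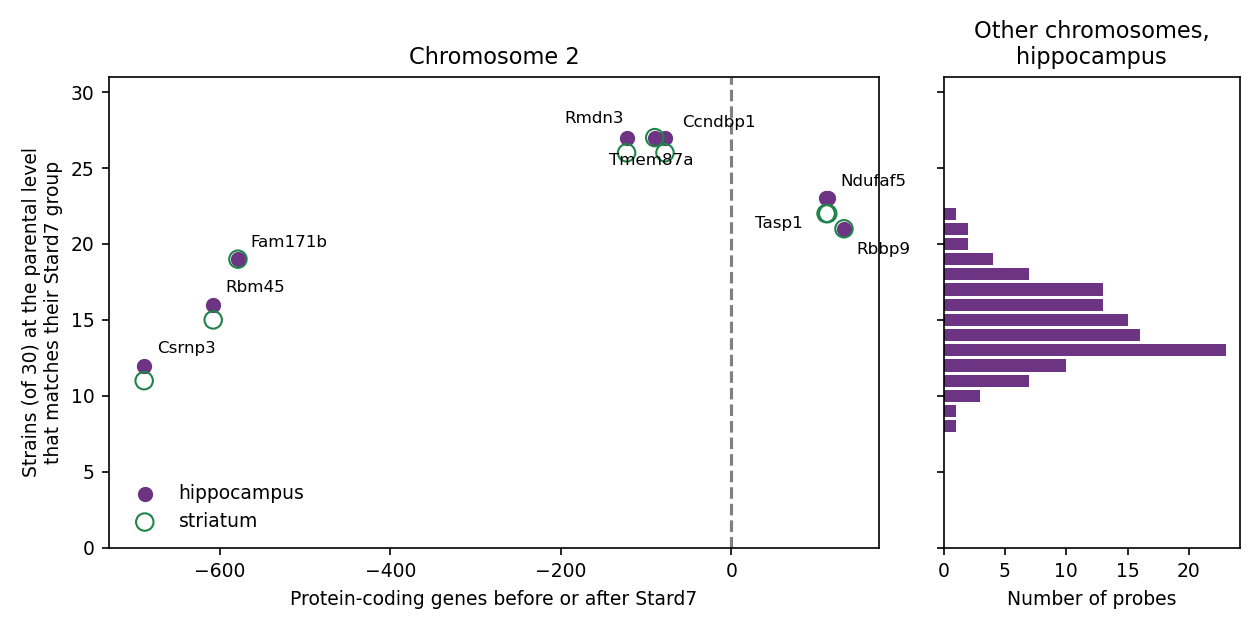
Number of the 30 BXD strains at the parental level that matches their Stard7 group (vertical), for probes that separate the parents by at least 1 log2 unit, against gene order from Stard7 on chromosome 2 (left; filled, hippocampus; open, striatum) and as a count of probes on other chromosomes (right, hippocampus). The count is 26 or 27 at Rmdn3, Tmem87a and Ccndbp1, 21 to 23 at Tasp1, Ndufaf5 and Rbbp9, and 8 to 22 on other chromosomes.

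In hippocampus, 12345 probes were tested between high and low strains, and 18 passed an adjusted p of 0.05 (0.146% of those tested). Of these 14 lay on chromosome 2, for 13 genes, and 4 had no gene or chromosome in the annotation. None of the 10690 probes on other chromosomes passed, although 527 of them (4.93%) had an unadjusted p under 0.05. Of the 18 called probes, 12 were higher in the high strains (0.0972% of probes tested) and 6 were lower (0.0486%).

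In striatum, 12314 probes were tested and 21 passed (0.171%), of which 19 lay on chromosome 2, for 18 genes, and 2 were unplaced. Again 0 of the 10680 probes on other chromosomes passed by limma, and 337 (3.16%) had an unadjusted p under 0.05. The striatum calls were 15 higher (0.122%) and 6 lower (0.0487%) in the high strains. Without BXD42 there were 13 chromosome 2 calls in hippocampus and 18 in striatum, and without BXD24a 13 and 17.

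The calls on chromosome 2 clustered around Stard7. Among the probes within 50 genes of it, 7 of 61 (11.5%) were called in hippocampus and 11 of 61 (18%) in striatum. From 51 to 150 genes away the shares were 6 of 132 (4.55%) and 8 of 130 (6.15%). Beyond 150 and up to 300 genes away 1 of 162 was called in hippocampus and 0 of 152 in striatum, and beyond 300 genes there were 0 of 591 and 0 of 581. The unadjusted p gave the same gradient, since it was under 0.05 for 37.7% of probes within 50 genes in hippocampus and for 4.23% of those beyond 300 genes. All calls over 50 genes away lay before Stard7, where 7 of 134 probes at 51 to 300 genes were called in hippocampus and 8 of 126 in striatum, against 0 of 160 and 0 of 156 on the other side.

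**Figure D4:**
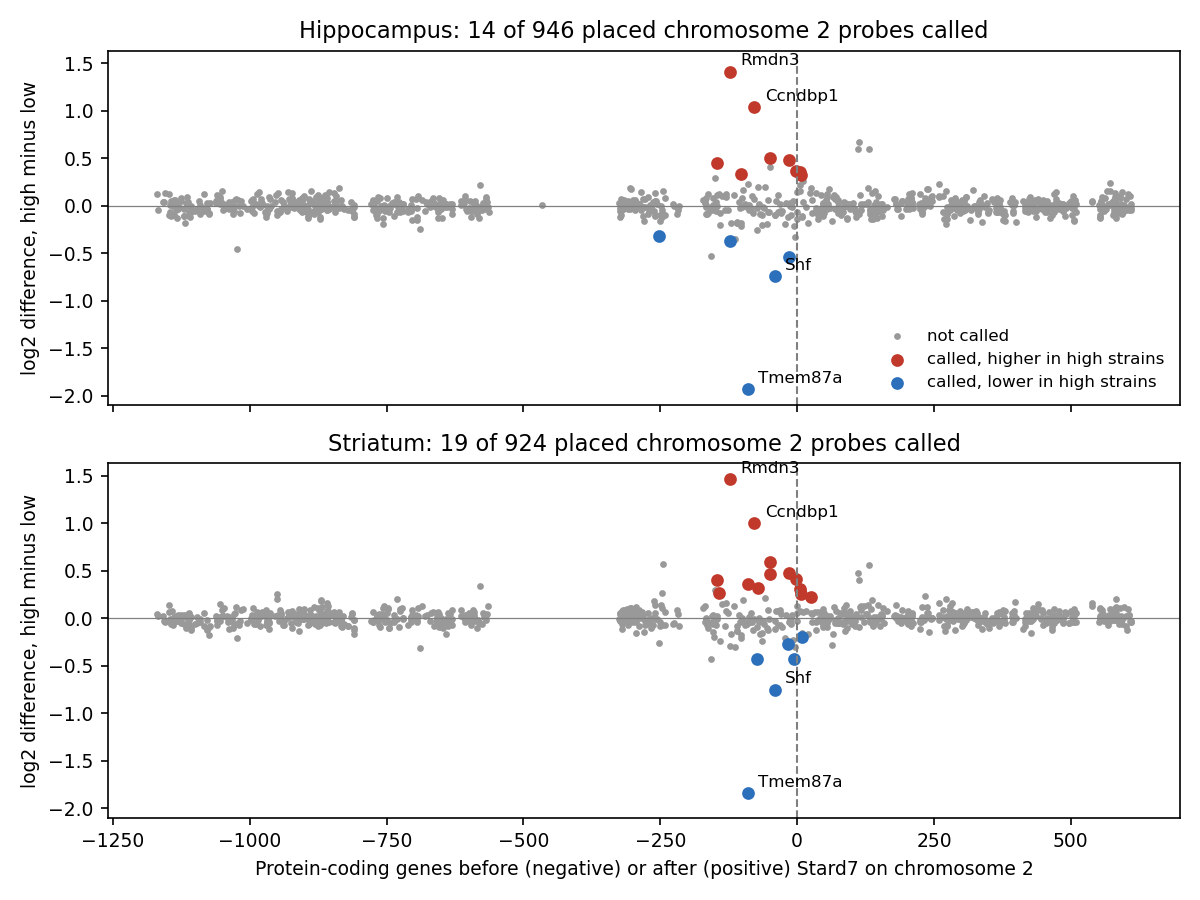
Log2 difference between high and low strains (vertical) of each tested chromosome 2 probe by its place in gene order from Stard7 (horizontal), in hippocampus (top) and striatum (bottom). Red and blue points are called as higher or lower in the high strains, grey points are not called, and the called probes lie between 253 genes before and 25 genes after Stard7.

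Both tissues called 11 probes in common, which were 61.1% of the hippocampus calls and 52.4% of the striatum calls, all with the same sign. The tissues are from the same strains, so they share the inherited block. Of 7 probes called only in hippocampus, 6 were tested in striatum and 5 of those had the same sign, and all 10 probes called only in striatum had the same sign in hippocampus. Being called in one tissue and not the other does not show a difference between tissues, which was tested separately.

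The largest differences came from 2-level probes of Tmem87a, Rmdn3, Ccndbp1 and Shf, of which the first 3 lie 78 to 123 genes before Stard7. Whether these probes cover DNA differences between B6 and DBA was not tested, so their folds are differences in probe level and may not be differences in transcript. Tmem87a ranged from 179 to 1197 with a median of 218 in the high strains and from 194 to 1322 with a median of 1165 in the low strains in hippocampus. Its overlap was due to BXD11 (957) and BXD32 (1197) among the high strains and BXD9 (194) among the low strains. Tmem87a was lower in the high strains by 1.93 ± 0.26 on the log2 scale (SE; limma, adjusted p = 5.84e-05) and in striatum the difference was -1.84 ± 0.26 (limma, adjusted p = 0.000148). In striatum BXD42 lay between the levels of the groups, at 708.

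Rmdn3, probe ILMN_3150536, had a median of 868 in the high strains (232 to 1006) and of 238 in the low strains (211 to 1032) in hippocampus. It was 2.66-fold higher in the high strains in hippocampus (log2 difference 1.41 ± 0.21, limma, adjusted p = 0.000292) and 2.75-fold higher in striatum (1.46 ± 0.24, limma, adjusted p = 0.00115). The second probe of the gene, ILMN_3071764, went the other way. It had a median of 540 in the high strains and of 716 in the low strains in hippocampus, with a log2 difference of -0.37 ± 0.07 (limma, adjusted p = 0.0103), and it did not pass in striatum (-0.29 ± 0.07, limma, adjusted p = 0.113). No direction for Rmdn3 as a gene can be given from probes that disagree.

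Ccndbp1 had a median of 920 in the high strains (298 to 1067) and of 369 in the low strains (270 to 949) in hippocampus. The difference was 1.04 ± 0.17 in hippocampus (limma, adjusted p = 0.00108) and 1.00 ± 0.18 in striatum (limma, adjusted p = 0.0033), both about 2-fold: 2.05 and 2.01. BXD32 and BXD11 were the lowest of the high strains and BXD9 the highest of the low strains in both tissues, as at Tmem87a.

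Closer to Stard7, Shf (an SH2-domain adaptor of growth factor signalling, 41 genes before) had a median of 686 in the high strains (544 to 1642) and of 1210 in the low strains (632 to 1662) in hippocampus. It was lower in the high strains by 0.74 ± 0.13 in hippocampus (limma, adjusted p = 0.00241) and 0.75 ± 0.13 in striatum (limma, adjusted p = 0.00115). BXD11 and BXD32 were again the highest of the high strains and BXD9 the lowest of the low strains. The other 2 tested probes of Shf had log2 differences of -0.10 and -0.10 in hippocampus and -0.03 and -0.11 in striatum and did not pass.

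B2m encodes beta-2 microglobulin, the light chain of MHC class I, and lies 49 genes before Stard7. Probe ILMN_2739999 had a median of 3643 in the high strains (2374 to 4956) and of 2427 in the low strains (1910 to 4404) in hippocampus. In striatum it had a median of 3559 in the high strains (1911 to 4114) and of 2152 in the low strains (2012 to 3200). The lowest high strain in striatum was BXD11, and all 18 low strains lay within the range of the high strains there. In hippocampus 11 of 18 low and 9 of 12 high strains lay within the range of the other group. The log2 difference was 0.50 ± 0.11 in hippocampus (limma, adjusted p = 0.0275) and 0.60 ± 0.08 in striatum (limma, adjusted p = 9.52e-05). The second B2m probe passed in striatum only, with 0.47 ± 0.08 (limma, adjusted p = 0.000962) against 0.41 ± 0.10 in hippocampus (limma, adjusted p = 0.122).

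**Figure D5:**
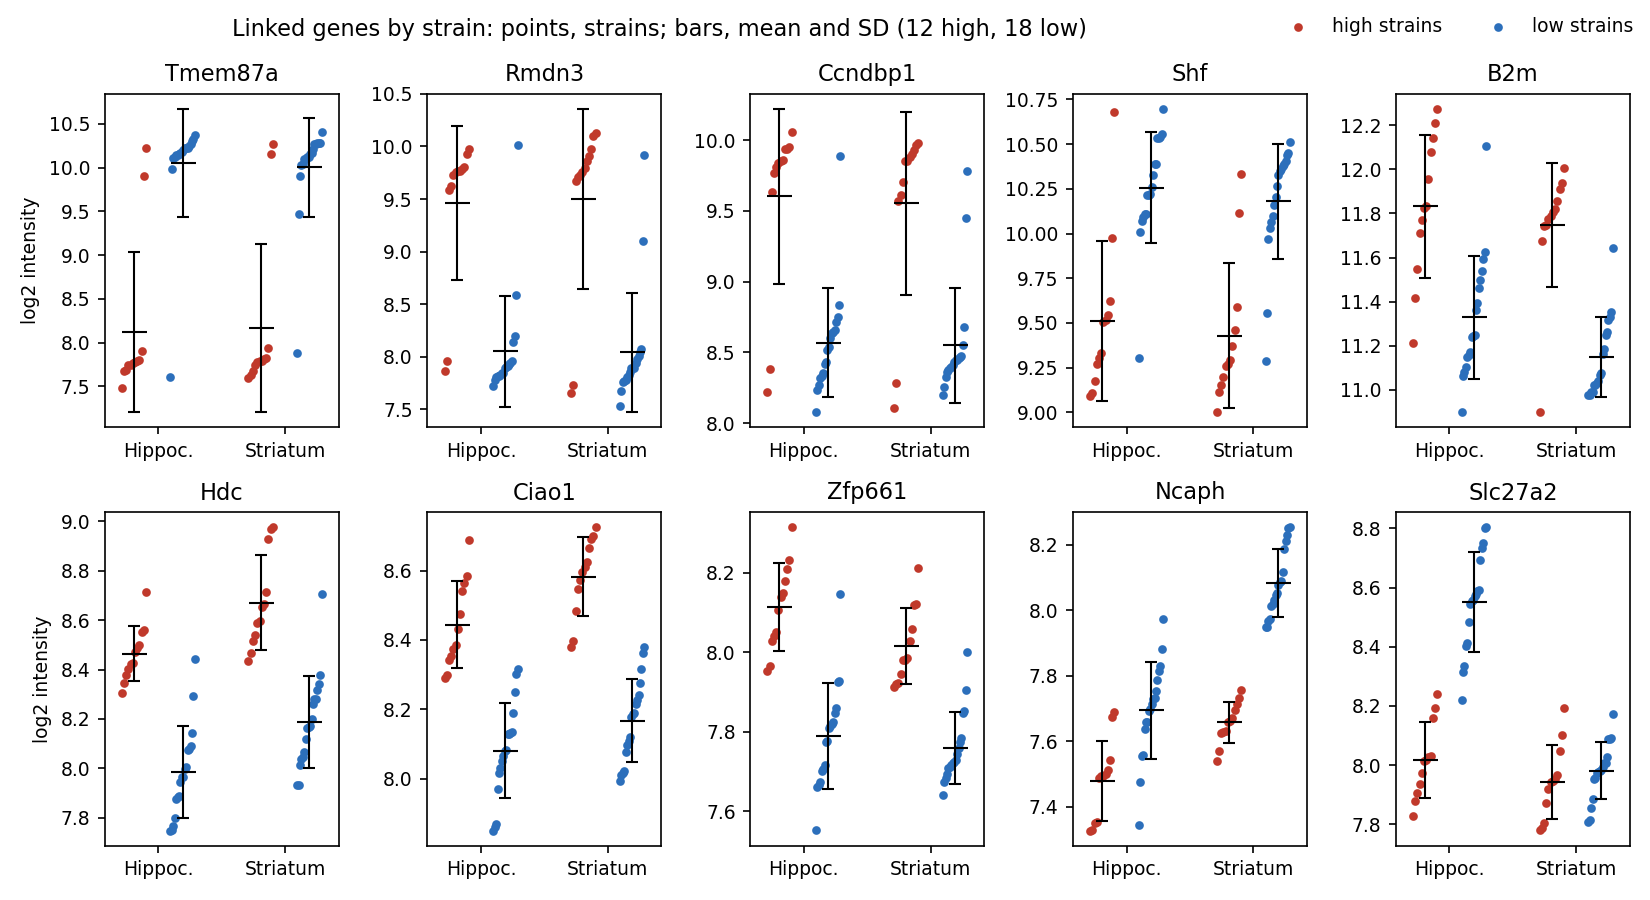
Log2 intensity (vertical) of 10 chromosome 2 probes in each BXD strain, in hippocampus (left pair) and striatum (right pair), with the 12 high strains in red and the 18 low strains in blue; bars show the mean and SD. In Tmem87a, Rmdn3, Ccndbp1 and Shf the strains BXD9, BXD11 and BXD32 sit with the opposite group, Ncaph and Ciao1 do not overlap in striatum, and the groups of Slc27a2 overlap by 1 strain each in hippocampus.

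Among the genes nearest to Stard7, Ciao1 and Ncaph differed by less but did not overlap in striatum, while others overlapped more widely, such as Fahd2a with 10 of 18 low and 11 of 12 high strains within the range of the other group in hippocampus. Ciao1, 2 genes before Stard7, takes part in the assembly of cytosolic iron-sulfur proteins. In striatum it ranged from 333.2 to 423 with a median of 389 in the high strains and from 255 to 332.9 with a median of 290.4 in the low strains, so the groups did not overlap, while in hippocampus 2 strains of each group lay within the range of the other. The difference was 0.36 ± 0.05 in hippocampus (limma, adjusted p = 0.000111) and 0.42 ± 0.05 in striatum (limma, adjusted p = 1.51e-06).

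Ncaph encodes a subunit of condensin I, which compacts mitotic chromosomes, and lies 6 genes before Stard7. In striatum it ranged from 186 to 216 with a median of 202 in the high strains and from 247 to 305 with a median of 268 in the low strains, without overlap. This was the smallest adjusted p of either tissue, at 1.15e-08 (limma), for a log2 difference of -0.43 ± 0.04. The probe was detected in 10 of 12 high and 18 of 18 low strains in striatum, so the high strains lay near background. In hippocampus the difference was -0.21 ± 0.05 (limma, adjusted p = 0.136), at a level near background, where it was detected in 3 of 12 high and 14 of 18 low strains. Under normexp with quantile normalization, the hippocampus difference was -0.59 and passed (limma, adjusted p = 0.0335). Ciao1 and Ncaph were the 2 called probes whose groups did not overlap, both in striatum, where 0.171% of all probes were called. The gap at Ciao1 was narrow, from 332.9 to 333.2. The share of all tested probes without overlap was not counted, so the lack of overlap is given as a description.

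Hdc, the histidine decarboxylase that makes histamine, lies 14 genes before Stard7. It had a median of 349.5 in the high strains (316 to 420.0) and of 249.7 in the low strains (215 to 348) in hippocampus, and 1 low strain, BXD28, lay within the range of the high strains. The log2 difference was 0.48 in both tissues, with SEs of 0.06 in hippocampus and 0.07 in striatum (limma, adjusted p = 1.78e-05 and 0.000148). Zfp661, a zinc finger gene 8 genes after Stard7, was higher in the high strains by 0.33 ± 0.05 in hippocampus (limma, adjusted p = 0.000273) and by 0.26 ± 0.04 in striatum (limma, adjusted p = 0.000301).

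Slc27a2 was the one gene whose difference itself differed between tissues. It encodes an enzyme that activates very-long-chain fatty acids and takes up fatty acids, and lies 15 genes before Stard7. In hippocampus it ranged from 227 to 303 with a median of 259 in the high strains and from 298 to 447 with a median of 379 in the low strains, and only BXD32 and BXD36 kept the groups from being apart. In striatum it ranged from 219.7 to 293.0 with a median of 246.6 in the high strains and from 224 to 289 with a median of 253 in the low strains. The log2 difference was -0.53 ± 0.06 in hippocampus (limma, adjusted p = 1.17e-06) and -0.04 ± 0.04 in striatum (limma, adjusted p = 1).

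The hippocampus minus striatum level of Slc27a2 averaged 0.07 ± 0.18 in the high strains and 0.57 ± 0.18 in the low strains (SD, n = 12 and 18, log2). The test of the difference between tissues gave -0.50 ± 0.07 (limma, adjusted p = 0.000158), and 1 of the 11756 probes tested in both tissues passed (0.00851%). Next came Ltk, a receptor tyrosine kinase, with 0.33 ± 0.07 in hippocampus and -0.18 ± 0.07 in striatum, which did not pass the test between tissues (0.51 ± 0.10, limma, adjusted p = 0.158). The next smallest p-values were those of 1700030K09Rik, Cdk20, Nrbp2, Mysm1, Blvra, Abi3, Man2c1 and Ccdc120, all at an adjusted p of 0.997 (limma).

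Other genes were called in 1 tissue. In hippocampus, Kcnip3 (the calcium sensor DREAM, which binds Kv4 channels, 6 genes after Stard7) was higher in the high strains by 0.36 ± 0.07, with medians of 1120 in the high strains and 958 in the low strains. Its difference in striatum was 0.26 ± 0.06 (limma, adjusted p = 0.113). Ltk, 103 genes before, was higher by 0.33, and Cat, the catalase that breaks down hydrogen peroxide, 253 genes before, was lower by 0.32 (limma, adjusted p = 0.0483). Cat did not pass without BXD24b, BXD42 or BXD24a, each left out in turn (limma, adjusted p = 0.0602, 0.0504 and 0.0653). It was also lost under quantile normalization, normexp, no detection filter, a choroid plexus covariate, the striatum split and the continuous probe level. Over 13 alternatives the call was lost under 9 (limma, adjusted p up to 0.102).

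In striatum, Fahd2a (a hydrolase-domain protein, 5 genes after Stard7) was higher in the high strains by 0.31 ± 0.05, Ganc (an alpha-glucosidase, 89 before) by 0.37 ± 0.06 and Gpr176 (an orphan G protein-coupled receptor, 143 before) by 0.26 ± 0.05. Adal (an adenosine deaminase-like enzyme, 73 before) was lower by 0.43 ± 0.07, Dtwd1 (a tRNA-modifying enzyme, 17 before) by 0.27 ± 0.05 and Mrps5 (of the small subunit of the mitochondrial ribosome, 9 after) by 0.19 ± 0.04. Second probes of Adal, Fahd2a, Mrps5 and Ttl did not pass, with -0.09, 0.08, -0.15 and 0.05 in striatum. Tubgcp4, a subunit of the gamma-tubulin ring complex, and Ttl, which adds tyrosine back to tubulin, were higher by 0.32 and 0.23. The Tubgcp4 probe was near background, detected in 10 of 12 high and 7 of 18 low strains. Tubgcp4 did not pass without BXD24b (limma, adjusted p = 0.0542) and Ttl did not pass without BXD42 or BXD24a (limma, adjusted p = 0.0613 and 0.0518).

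Rasgrp1, a Ras activator 146 genes before Stard7, passed in both tissues at 1 of its 3 tested probes, with 0.45 ± 0.09 in hippocampus and 0.40 ± 0.09 in striatum. That probe was near background, detected in 9 of 12 high and 2 of 18 low strains in hippocampus. The other 2 probes had differences of 0.00 and 0.11 in hippocampus and -0.01 and 0.03 in striatum. In striatum the call was lost without BXD24b or BXD24a (limma, adjusted p = 0.0514 and 0.0518).

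Among the unplaced probes, ILMN_1245093 and ILMN_2758198 were higher in the high strains in both tissues, by 0.29 and 0.39 in hippocampus and by 0.23 and 0.32 in striatum. ILMN_3016674 was higher by 0.30 in hippocampus (limma, adjusted p = 0.0242), with 0.10 in striatum (limma, adjusted p = 1). ILMN_1255775 was lower by 0.38 in hippocampus and was not tested in striatum. In hippocampus it was detected in only 1 of the high strains and in 13 of the low strains. The high strains thus lay near background, and the size of its difference is uncertain. The unplaced probes could not be counted as linked or unlinked, because the annotation used here does not list them.

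The single parent arrays were not used for any of these tests apart from the Stard7 probe. The sign of B6 minus DBA matched that of high minus low at 18 of 18 called probes in hippocampus and at 21 of 21 in striatum. The background was 44.6% of all probes tested in hippocampus and 54% in striatum, and within 50 genes of Stard7 the sign matched at 37 of 61 and 43 of 61 probes. The placed called probes lie on chromosome 2 with the probe that chose the groups, and all share the same parent arrays. Their signs are thus not separate agreements, and the match is given as a description. The parental difference was at least as large as the strain difference at 11 of the 18 called probes in hippocampus and at 15 of the 21 in striatum. Its median size was 0.49 log2 units in hippocampus (0.04 to 2.73) and 0.47 in striatum (0.05 to 2.39). The smallest in hippocampus was that of Hdc, which read 283 in B6 and 276 in DBA there, and 345 in B6 and 251 in DBA in striatum.

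No probe passed in the lists of START domain genes and of lipid and mitochondrial genes, which were drawn up with earlier results known. Of 9 genes with a START domain tested in hippocampus and 10 in striatum, 0 of 15 and 0 of 16 probes were called, where 0.146% of all probes were called in hippocampus and 0.171% in striatum. At these shares a list of this size, like each list below, would hold no call in most cases, so a count of 0 is not a result about the list. The median log2 difference was 0.02 in hippocampus and -0.02 in striatum, against 0.00 over all probes in both. The smallest p-values were those of Cert1 (the ceramide carrier, -0.08) and Stard5 (0.05) in hippocampus, and of Stard5 (-0.12) and Stard8 (0.22) in striatum.

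For phosphatidylcholine synthesis, 0 of 22 probes in hippocampus and 0 of 24 in striatum were called. The smallest p was that of Slc44a2, a choline transporter, with 0.17 ± 0.04 in hippocampus (limma, adjusted p = 0.147), followed by Lpcat2 with 0.09, and in striatum Pcyt2 and Pcyt1a had 0.10 and -0.08. For mitochondrial phospholipid transfer and cardiolipin it was 0 of 15 and 0 of 14, led by Prelid1 and Crls1 in hippocampus and Ptpmt1 and Crls1 in striatum, all within 0.13 of 0. Crls1, the cardiolipin synthase, is itself on chromosome 2, 92 genes after Stard7, and had -0.13 ± 0.08 in hippocampus. Coenzyme Q synthesis had 0 of 16 and 0 of 15, with Coq5 and Coq4 leading in hippocampus and Coq6 and Coq3 in striatum.

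The PARL protease and cristae list had 0 of 18 probes called in each tissue. Pgam5, a PARL substrate, had -0.10 and Pink1 0.08 in hippocampus, and Immt, the core protein of cristae junctions, had 0.12 and Diablo -0.08 in striatum. In the respiratory chain 0 of 58 probes were called in each tissue, with medians of -0.05 in hippocampus and 0.02 in striatum, and the smallest p-values at Uqcrb and Sdhb in hippocampus and at Uqcrc1 and Cox6a1 in striatum.

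Memory and plasticity genes were listed because the study concerned fear learning. Here 0 of 34 probes in hippocampus and 0 of 32 in striatum were called. Arc, an activity-induced synaptic gene, had the smallest p in both, with 0.36 ± 0.16 in hippocampus (limma, adjusted p = 0.885) and 0.52 ± 0.20 in striatum (limma, adjusted p = 1). It was followed by Ppp3ca in hippocampus (-0.19) and Gria1 in striatum (0.17). Of the genes that the study names beside Stard7, 0 of 13 and 0 of 12 probes were called, led by Ccp110 and Psmd6 in hippocampus and by Nfib and Kif3a in striatum.

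The cell type markers are read against the same shares of 0.146% and 0.171%, which leave 0 as the usual count. The choroid plexus list, for a tissue that a dissection of hippocampus can carry, had 0 of 11 probes called in each tissue. The mean log2 level of its probes ranged from 8.05 to 9.57 (median 8.75) in the high strains and from 8.08 to 9.53 (median 8.97) in the low strains in hippocampus. Ttr and Kl led it in hippocampus, with -0.42 ± 0.24 and -0.28 ± 0.16, and Clic6 and Folr1 in striatum, with -0.28 ± 0.19 and -0.13 ± 0.17.

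The oligodendrocyte list had 0 of 17 probes called in each tissue. Its leading member, Mal, a myelin proteolipid, lies 10 genes after Stard7 and had 0.26 ± 0.11 in hippocampus and 0.29 ± 0.11 in striatum (limma, adjusted p = 0.858 and 1). Next to it were Mbp in hippocampus (0.08) and Mobp in striatum (-0.18). The astrocyte, microglia, endothelium and erythrocyte lists and the lists of striatal and hippocampal neurons had 0 probes called in either tissue. Their leading members were Slc1a2 and Aldh1l1 for astrocytes, Trem2, Cx3cr1 and C1qc for microglia, Pecam1, Tek and Slc2a1 for endothelium, Hba-a1, Hbb-b2 and Alas2 for blood, Drd1, Rgs9, Pdyn and Ppp1r1b for striatal neurons and Spink8, Prox1 and C1ql2 for hippocampal neurons. The largest difference among these leading members was that of Spink8, a pyramidal cell gene, with -0.23 ± 0.09 in hippocampus (limma, adjusted p = 0.807).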

How the data were processed

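RNA of 30 BXD strains was measured in hippocampus and striatum. The authors normalized the arrays with the rank invariant option of BeadStudio and deposited for every probe its processed intensity, its signal intensity and its detection p-value. The signal equals the processed intensity, within 0.1%, at 100% of hippocampus and 0.74% of striatum values. Processed intensities were floored at 16 (0 BXD values were under it) and log2 transformed. Probes with a detection p under 0.01 on at least 20% of the 30 arrays were fitted with limma 3.58.1 (R 4.3.3; lmFit, eBayes, two-sided), high minus low, with Benjamini-Hochberg adjustment over all probes tested and a threshold of 0.05. The probe of the split was left out. The tissues were compared through each strain's hippocampus minus striatum difference. Alternatives were an added constant of 16, quantile normalization, normexp from the signal, other detection filters, leaving out BXD24b, a covariate for breeding wave or choroid plexus, the split by the striatum probe, the probe level as a continuous term and a 1.2-fold minimum. The breeding wave was set from the strain number, since no label gives it. Python 3.11.15, numpy 2.4.6, pandas 2.3.3 and scipy 1.17.1 were used, and the fit was tested on simulated data.

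Of the probes, 23978 had 1 gene symbol and 1719 none. Names, chromosomes and gene order came from RefSeq (GRCm38.p6), since the build of the array annotation was not given in the files. The mapping of the study used genotypes, which were not used here, and no correction for relatedness was made. Named are all Stard7 probes, all called genes, the 2 members of each list with the smallest p where none was called, and the 10 genes with the smallest p between tissues. The split, members and lists were chosen with earlier results of these data known.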

Additional observations from a re-analysis of the deposited data

Results flagged for a closer look

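Slc27a2 was singled out because the difference between high and low strains was itself different in the 2 tissues. The hippocampus difference less the striatum difference was -0.50 ± 0.07 on the log2 scale (SE; limma, adjusted p = 0.000158, n = 12 high and 18 low strains). It was called under every alternative run, with an adjusted p between 0.000131 and 0.0205. The gene has 1 tested probe, so no second probe could be compared.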

How the results depend on the processing

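On chromosome 2, hippocampus calls numbered 8 to 14 and striatum calls 15 to 19 over 13 alternatives, and no call changed sign. The 8 calls, with 2 unplaced instead of 4, came from the split by the striatum probe, which moves only BXD42. On other chromosomes 1 hippocampus probe passed in place of 0 under normexp with quantile normalization (Hnrnpk, log2 difference -0.32), without BXD24b (Hdac7, 0.23), and, for Mfsd10 (0.23 to 0.24), with a choroid plexus covariate, with the striatum split and without BXD42. Detection on 80% of arrays left 2 unplaced calls in hippocampus and 1 in striatum, and the 1.2-fold minimum left 1 in striatum. The 80% filter took ILMN_1255775 and ILMN_2758198 out of the test in hippocampus, and ILMN_2758198 out of it in striatum. In striatum ILMN_1245093 had a fold of 1.17, under the 1.2-fold minimum. Why the calls on other chromosomes and under the striatum split changed was not tested. Of the calls, 9 of 18 in hippocampus and 14 of 21 in striatum held under all alternatives in which their probe was tested. These counts include ILMN_1255775 in hippocampus and ILMN_2758198 in striatum, which were not tested under the 80% filter. Leaving out BXD42 or BXD24a was added after seeing the data. The Stard7 difference in striatum lay between 2.22 and 3.14.

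No paired analysis was possible because high and low strains are different strains that share no number. Signal over background limits Rasgrp1, Tubgcp4, Ncaph in both tissues and the unplaced probes ILMN_1255775 and ILMN_2758198, which were not detected on every array. Zfp661 was detected in 16 of 18 low strains in both tissues, and Fahd2a in 14 of 18 low strains in striatum. Tmem87a was detected in 11 of 12 high strains in both tissues. Rmdn3 probe ILMN_3150536 was detected in 17 of 18 low strains in striatum.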
